A study of Mus musculus with 9 samples.

Results

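Hox cluster genes encode homeodomain transcription factors that lie side by side in 4 chromosomal clusters, and a paralog number gives each gene its place along its cluster. Of 12393 genes that had a probe set of their own on the arrays, 31 were Hox cluster genes, and they were found by symbol: every probe set whose platform annotation gave exactly 1 gene symbol, of the form Hoxa to Hoxd followed by a number, was kept. Where a gene had several such probe sets, that with the highest mean over all 9 arrays stood for it. RefSeq lists 39 Hox genes, and all 31 measured genes matched it by Entrez identifier. The A cluster had 9 of 11 genes measured, the B cluster 9 of 10, the C cluster 6 of 9 and the D cluster 7 of 9. The other genes of the clusters were not analysed here.

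The 3 kinds of culture compared served the study as rough stand-ins for cells that start breast tumors, for normal stem and progenitor cells of the gland, and for their differentiated progeny. Tumorspheres (TMS, n = 3) were grown from independent mammary tumors of MMTV-Neu (N2O2) transgenic mice, in which the mouse mammary tumor virus promoter drives Neu mainly in mammary epithelium. Mammospheres (MMS, n = 3) came from the mammary glands of young virgin FVB/N females, and the third group (diffMMS, n = 3) was mammosphere cells of the same strain that were dispersed, plated on collagen and kept for 7 days in serum. Both kinds of sphere were grown in stem cell medium, passaged every 7 days and harvested between passages 3 and 5, and total RNA of each population was hybridized to 1 MOE430A array, a short-oligonucleotide array of mouse transcripts. Sphere cultures hold only cells that grow in suspension, diffMMS also differ from MMS in attachment, and which gland each tumor arose in was not given in the sources used here. The protocol calls the 3 populations of a group independent but does not say which animals each came from. P-values therefore set differences between groups against the spread between these arrays, which may not be the spread between animals.

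Hox proteins give cells along the body axis their regional identity, and in embryos the genes at one end of a cluster are switched on earlier and further forward than those at the other. They bind DNA together with cofactors of the Pbx, Meis and Pknox families, Polycomb complexes keep them silent, and Trithorax and MLL complexes keep them active. In the mammary gland, genes of the middle and posterior paralogs are known for roles in gland outgrowth and in the epithelial response to pregnancy.

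All levels below are log2 of the deposited probe set intensity plus a pseudocount of 8.67, after quantile normalization, and all differences are on that scale, which understates changes of dim genes. A probe set was called when its adjusted p in limma was below 0.05, adjusted over 22626 probe sets. Arrays of a group ranked the probe sets alike (Spearman 0.985 to 0.993 in TMS, 0.995 to 0.996 in MMS and 0.990 to 0.995 in diffMMS). The array codes of the TMS arrays form a run separate from those of the other 6 arrays, so array series and tumorspheres cannot be told apart. As a check of the epithelial label, of 14 luminal markers measured, 7 were called higher in TMS than in MMS, and their summed intensity ranged from 4812 to 7879 in TMS, 925 to 1002 in MMS and 964 to 1161 in diffMMS. The luminal keratin gene Krt18 read 9.79 to 10.67 in TMS, 5.58 to 6.27 in MMS and 5.29 to 5.66 in diffMMS, and the epithelial adhesion gene Epcam 9.64 to 9.99, 6.10 to 6.46 and 5.93 to 6.28. The median luminal marker read 6.62 to 6.92 in TMS, 5.82 to 5.86 in MMS and 5.86 to 5.90 in diffMMS. In MMS and diffMMS it was thus below the median of all values, 6.57. By luminal markers the epithelial label was therefore not borne out for MMS and diffMMS. The median of 12 basal and myoepithelial markers was 6.05 to 6.42 in TMS, 5.90 to 5.96 in MMS and 6.14 to 6.35 in diffMMS. That of 15 fibroblast markers was 10.92 to 11.11 in TMS, 10.95 to 11.27 in MMS and 10.54 to 10.67 in diffMMS. The luminal median was thus below the fibroblast median in TMS as well.

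Most Hox probe sets were dim. Only 10 of 31 (32.3%) had a mean above that of the median probe set, against 58.4% of all genes: Hoxa7, Hoxa9, Hoxb2, Hoxb3, Hoxb4, Hoxc4, Hoxc6, Hoxc8, Hoxc9 and Hoxd8. Of these, 6 belonged to the 12 measured genes of paralogs 4 to 8, 2 to the 6 of paralogs 1 to 3 and 2 to the 13 of paralogs 9 to 13. In all, 11 of 31 Hox genes lay below the 25th percentile of probe sets, against 17.3% of all genes. The deposited values carry no detection call, so a dim probe set was not taken as absent.

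As many as 13 of 31 Hox genes (41.9%) were called in at least 1 of the 3 comparisons, against 43% of all genes. Each comparison gave calls in 1 direction. TMS were lower than MMS in Hoxa2, Hoxa5, Hoxa10 and Hoxc8, diffMMS were higher than MMS in Hoxa7, Hoxa9, Hoxb4, Hoxc6, Hoxc8, Hoxc9 and Hoxd12, and TMS were lower than diffMMS in Hoxa7, Hoxa10, Hoxb9, Hoxc6, Hoxc8, Hoxc9, Hoxd8, Hoxd9 and Hoxd12. The 3 comparisons share arrays pairwise, so these lists are not independent of one another.

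**Figure D1:**
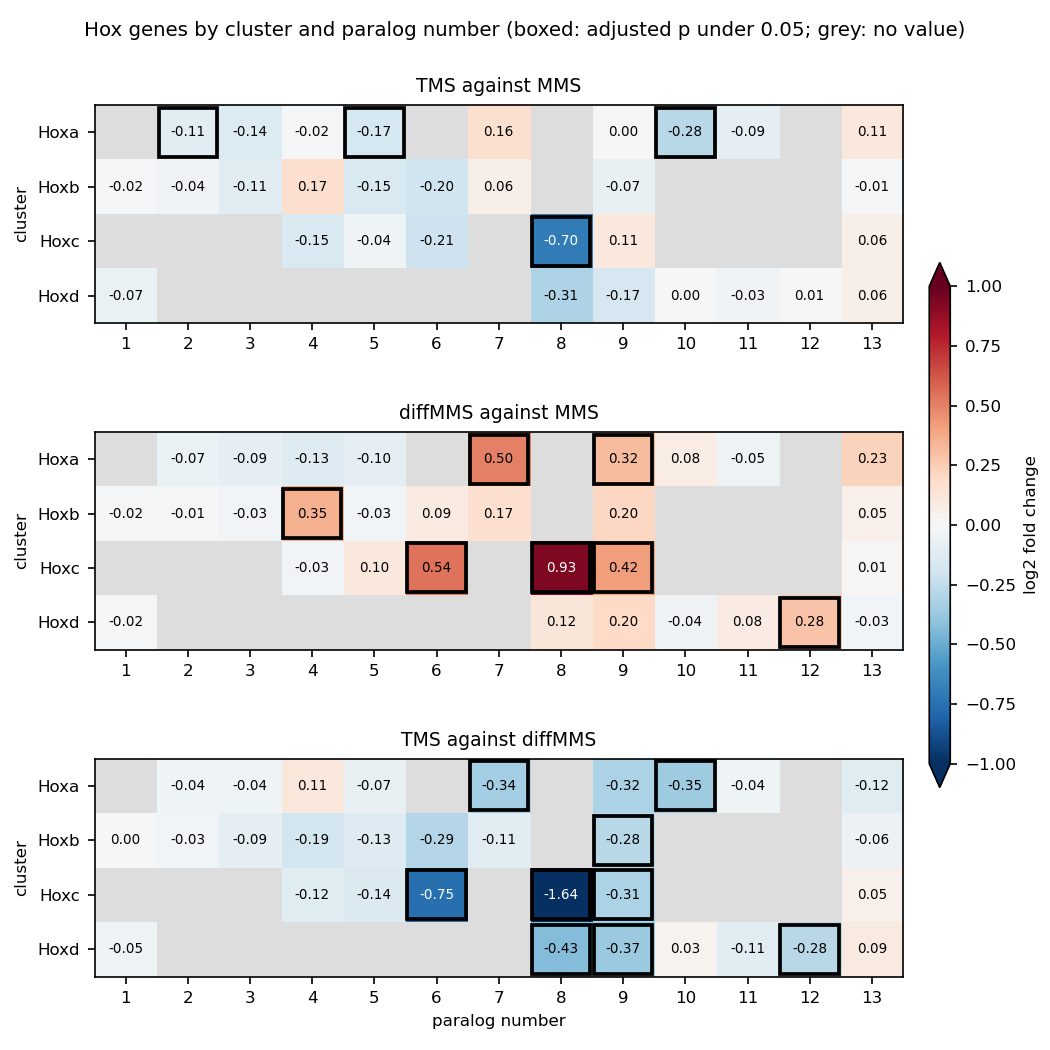
Log2 fold changes of the 31 measured Hox genes, with clusters as rows and paralog numbers as columns, for TMS against MMS, diffMMS against MMS and TMS against diffMMS (n = 3 arrays a group). Black boxes mark adjusted p below 0.05 in limma, grey fields have no value, and colors end at 1 in either direction. The boxed genes are 4, 7 and 9 in the 3 panels, and the darkest fields are those of Hoxc8, at -0.70, 0.93 and -1.64.

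The comparison of diffMMS with MMS asked which Hox transcripts changed when mammosphere cells attached and differentiated in serum. In bulk RNA, fewer cells of a type and less RNA per cell cannot be told apart. Limma called 7 of 31 Hox genes (22.6%), against 34.1% of all genes, and all 7 were higher in diffMMS. Among all genes 18% were called higher and 16.1% lower, and centring arrays on their medians in place of quantile normalization turned that split to 13.3% and 21%, while the Hox calls became 9 higher. At an unadjusted p below 0.05, 10 Hox genes were higher and 1 was lower. The median Hox difference was 0.08, against 0.05 over all genes. Of the 10 brighter Hox genes 6 were called, against 44% of all genes with a mean above the median probe set.

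The C cluster, which is known to be used mainly in posterior regions of the embryo, held 3 of these 7 genes among its 6 measured genes. Hoxc8, a gene of thoracic identity, read 7.15, 7.14 and 7.00 in MMS and 7.76, 8.15 and 8.18 in diffMMS. Every diffMMS array was above every MMS array, and the difference was 0.93 ± 0.181 (SE), or 1.91-fold (limma adjusted p = 0.00205). It was called under every alternative run.

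Hoxc6, its neighbor and a gene also active in the embryonic thorax, read between 7.99 and 8.03 on the 3 MMS arrays and 8.64, 8.55 and 8.48 in diffMMS. The groups lay far apart for their spread, with SDs of 0.0205 and 0.0802 and a difference of 0.54 ± 0.0878 (SE), or 1.46-fold (limma adjusted p = 0.000585). Hoxc9, which lies on the other side of Hoxc8, averaged 7.91 ± 0.117 (SD, n = 3) in MMS, where the lowest array read 7.77, and read 8.41, 8.36 and 8.21 in diffMMS. Its groups did not overlap either, at a difference of 0.42 ± 0.0965 (SE) and 1.34-fold (limma adjusted p = 0.00601). The other measured C genes, Hoxc4, Hoxc5 and Hoxc13, differed by -0.03, 0.10 and 0.01 and were not called.

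In the A cluster the calls fell on Hoxa7 and Hoxa9, of 9 genes. Hoxa7 is a central paralog that read 7.24, 7.14 and 7.35 in MMS and 7.89, 7.73 and 7.61 in diffMMS. All 3 diffMMS arrays were higher, by 0.50 ± 0.11 (SE) on average, or 1.41-fold (limma adjusted p = 0.00442).

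Hoxa9, known for its part in blood stem cells and in leukemia, read 7.77, 7.49 and 7.51 in MMS and 8.03, 7.78 and 7.93 in diffMMS. After quantile normalization the lowest diffMMS array was only just above the highest MMS array. In the deposited intensities the groups overlapped, at 205 in diffMMS replicate 2 and 213 in MMS replicate 1. The difference of 0.32 ± 0.111 (SE) was called at a limma adjusted p of 0.0439. The call was lost without MMS replicate 2 or 3, diffMMS replicate 1 or 3, or TMS replicate 2, at adjusted p from 0.0578 to 0.152, and with values as deposited (0.24, limma adjusted p = 0.0825) or arrays centred on their medians (0.20, limma adjusted p = 0.148). A second Hoxa9 probe set moved the other way. It read 6.22, 6.17 and 6.32 in MMS and between 5.94 and 6.01 in diffMMS, a difference of -0.26 ± 0.0964 (SE) (limma adjusted p = 0.0608), so the direction of Hoxa9 depends on the probe set.

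Hoxb4, the gene of the B cluster known for expanding blood stem cells in culture, was the only 1 of its 9 measured genes called. It read 6.89, 6.95 and 6.91 in MMS and 7.39, 7.22 and 7.20 in diffMMS, with every diffMMS array above every MMS array. The difference was 0.35 ± 0.0844 (SE), or 1.28-fold (limma adjusted p = 0.00729), while its dimmer probe set differed by 0.15 ± 0.0925 (SE) with overlapping groups (limma adjusted p = 0.238).

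Hoxd12, a posterior gene used in the limb bud and genital region, was the call of the D cluster, 1 of 7 genes. It was dim, at the 14.9th percentile of probe sets, with 4.88, 4.92 and 4.98 in MMS and 5.21, 5.09 and 5.33 in diffMMS. The groups did not overlap, at a difference of 0.28 ± 0.061 (SE), or 1.22-fold (limma adjusted p = 0.00397).

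**Figure D2:**
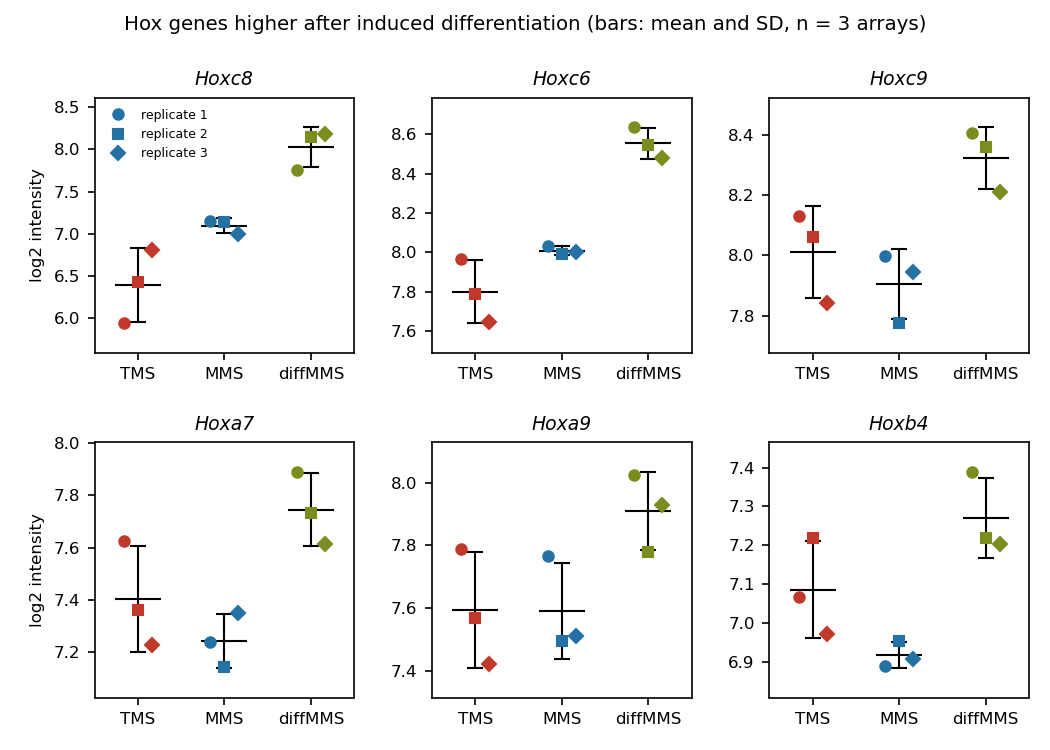
Log2 intensity of Hoxc8, Hoxc6, Hoxc9, Hoxa7, Hoxa9 and Hoxb4 on each array of TMS, MMS and diffMMS, with horizontal bars for the mean and error bars for the SD (n = 3). In each panel the 3 diffMMS points lie above the 3 MMS points, and in Hoxc8 the TMS points, at 5.94, 6.43 and 6.81, lie below both. Vertical scales differ between panels.

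Counting the groups that did not overlap, diffMMS lay wholly above MMS in 9 Hox genes, against 30.6% of all genes, and wholly below in 5, against 23%. In either direction these were 14 of 31, against 53.6% of all genes. Those above were the 7 called genes with Hoxb9 and Hoxa13, whose differences were 0.20 (limma adjusted p = 0.0621) and 0.23 (limma adjusted p = 0.0642). Those below were Hoxa2, Hoxa3, Hoxa4, Hoxa5 and Hoxa11, all of the A cluster and none called, at differences from -0.13 to -0.05. These small differences depended on the scaling. In the deposited intensities only Hoxa2 stayed wholly below, Hoxa3, Hoxa4 and Hoxa5 overlapped, and no diffMMS array of Hoxa11 was below any MMS array. Of the genes above, Hoxa9 overlapped there. Negative Hox differences were 13 of 31 after quantile normalization, 11 with arrays centred on their medians and 7 with values as deposited. By place in the cluster, 4 of 12 genes of paralogs 4 to 8 were called, 3 of 13 of paralogs 9 to 13 and 0 of 6 of paralogs 1 to 3, which by limma had no gene at an unadjusted p below 0.05 either.

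Tumorspheres were set against mammospheres to compare sphere cultures of tumors with those of normal glands. These cultures also differed in luminal markers, as given above. Limma called 4 of 31 Hox genes (12.9%), against 13.3% of all genes, and all 4 were lower in TMS. Among all genes 6.21% were called higher and 7.11% lower, and with arrays centred on their medians the split was 4.91% and 10.4% and the Hox calls were 6 lower. At an unadjusted p below 0.05, 6 Hox genes were lower and 0 higher. The median Hox difference was -0.04, against 0.00 over all genes, and 22 of 31 Hox differences were negative, against 49.3% of all genes. This lean depended on the scaling. With values as deposited 17 of 31 were negative, and the median Hox difference was -0.02, against 0.02 over all genes. The Hox calls were then 3 lower. Of the 10 brighter Hox genes 1 was called, against 16.2% of all genes of that brightness.

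Hoxc8 differed most. It read 5.94, 6.43 and 6.81 in TMS and 7.15, 7.14 and 7.00 in MMS, so every TMS array was below every MMS array, but the TMS arrays were spread over almost 1 log2 unit (SD 0.437, against 0.0863 in MMS). The difference was -0.70 ± 0.181 (SE), or 1.63-fold lower (limma adjusted p = 0.0226). The call was lost without TMS replicate 1 (-0.48, adjusted p = 0.0533) or 2 (-0.72, adjusted p = 0.0553), and without MMS replicate 1, 2 or 3 (adjusted p = 0.0691, 0.0833 and 0.0541), by limma each time.

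The other 3 calls were small and on dim probe sets of the A cluster. Hoxa10, which acts in the uterus and the posterior skeleton, read 4.52, 4.46 and 4.43 in TMS and 4.79, 4.76 and 4.70 in MMS, at the 9.61th percentile of probe sets. The groups did not overlap, and the difference of -0.28 ± 0.0555 (SE) had a limma adjusted p of 0.00595 and was called under every alternative that kept the probe set.

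Hoxa5, a gene with roles in lung and mammary development, read 5.03, 5.00 and 4.98 in TMS and 5.14, 5.24 and 5.14 in MMS, with a difference of -0.17 ± 0.0484 (SE) (limma adjusted p = 0.032). Hoxa2, which patterns the hindbrain and the second arch, read 4.35, 4.27 and 4.28 in TMS and 4.40, 4.42 and 4.41 in MMS, with a difference of -0.11 ± 0.0333 (SE) (limma adjusted p = 0.0471). In neither did the groups overlap, but Hoxa5 lost its call without any 1 of the 6 arrays compared (limma adjusted p from 0.0528 to 0.135), and Hoxa2 without 7 of the 9 arrays, that is all but TMS replicate 1 and diffMMS replicate 1 (limma adjusted p from 0.0569 to 0.148). With values as deposited neither was called (limma adjusted p = 0.135 for Hoxa5 and 0.193 for Hoxa2).

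TMS lay wholly below MMS in 9 Hox genes, against 17.2% of all genes, and wholly above in 1, against 15.4%. In either direction these were 10 of 31, against 32.6% of all genes. The 9 were the 4 called genes with Hoxa3, Hoxa11, Hoxb6, Hoxc4 and Hoxc6, and the 1 above was Hoxb4, at 7.07, 7.22 and 6.97 in TMS and a difference of 0.17 (limma adjusted p = 0.226). These counts depended on the scaling too. In the deposited intensities the 4 called genes and Hoxc6 stayed wholly below, while Hoxa11 and Hoxb6 overlapped. In Hoxa3 and Hoxc4 the highest TMS reading then equaled the lowest MMS reading. Hoxc6 read 7.97, 7.79 and 7.65 in TMS, a difference of -0.21 ± 0.0878 (SE) from MMS (limma adjusted p = 0.145). Hoxc9 and Hoxa7 overlapped between TMS and MMS, at differences of 0.11 and 0.16 (limma adjusted p = 0.54 and 0.391). By place in the cluster, 1 of 6 genes of paralogs 1 to 3 was called, 2 of 12 of paralogs 4 to 8 and 1 of 13 of paralogs 9 to 13, beside 13.3% of all genes.

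Across the TMS arrays, replicate 3 gave the lowest reading of its group in 24 of 31 Hox genes (77.4%), against 43.8% of all genes. Hoxc8 went the other way, as the 1 gene with replicate 3 highest. The median SD of a Hox gene was 0.0860 in TMS, 0.0578 in MMS and 0.0814 in diffMMS, against 0.0968, 0.0663 and 0.0893 over all genes. What set that tumorsphere array apart was not tested.

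Tumorspheres were also set against diffMMS, the cultures most unlike them in growth and treatment. Limma called 9 of 31 Hox genes (29%), against 24.9% of all genes, and all 9 were lower in TMS. Among all genes 12.3% were called higher and 12.7% lower. With arrays centred on their medians that split was 12.2% and 10.6%, with values as deposited 12.5% and 10.3%, and the Hox calls were 7 lower under both. At an unadjusted p below 0.05, 12 Hox genes were lower and 1 was higher. The median Hox difference was -0.12, against -0.03 over all genes, and 27 of 31 were negative, against 57.1% of all genes. Of the 10 brighter Hox genes all differences were negative and 5 were called, against 31.4% of all genes of that brightness. Without TMS replicate 3 or without diffMMS replicate 2, 4 Hox genes were called in place of 9.

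Hoxc8 and Hoxc6 differed most. With the array readings given above, Hoxc8 in TMS differed from diffMMS by -1.64 ± 0.181 (SE), or 3.11-fold lower (limma adjusted p = 3.96e-05). Hoxc6 differed by -0.75 ± 0.0878 (SE), or 1.69-fold lower (limma adjusted p = 6.02e-05). In both genes the highest TMS array was well below the lowest diffMMS array.

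The dim genes Hoxa10 and Hoxd12, both below the 25th percentile of probe sets, followed with small standard errors. Hoxa10 read 4.76, 4.76 and 4.95 in diffMMS and differed by -0.35 ± 0.0555 (SE) (limma adjusted p = 0.000621). Hoxd12 read 4.97, 4.90 and 4.92 in TMS and differed by -0.28 ± 0.061 (SE) (limma adjusted p = 0.00581). Neither overlapped, and each kept its call whichever array was left out.

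Paralogs 8 and 9 gave the other calls of the B and D clusters. Hoxd8, an axial gene, read 7.91, 7.66 and 7.32 in TMS, 8.03, 7.95 and 7.84 in MMS and 7.97, 8.12 and 8.09 in diffMMS. TMS lay below diffMMS by a narrow gap and overlapped with MMS, and the difference from diffMMS was -0.43 ± 0.124 (SE) (limma adjusted p = 0.0251). Without TMS replicate 2 or 3 or diffMMS replicate 2 or 3, that difference was not called (limma adjusted p from 0.0546 to 0.0793).

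Hoxd9, one of the paralog 9 genes that act together in mammary gland growth around pregnancy, read 5.85, 5.80 and 5.51 in TMS, 5.93, 5.95 and 5.79 in MMS and 5.93, 6.19 and 6.16 in diffMMS. MMS overlapped with both other groups, and TMS differed from diffMMS by -0.37 ± 0.102 (SE) (limma adjusted p = 0.0202). Hoxb9, its B cluster paralog, read 5.97, 5.85 and 5.81 in TMS, 5.94, 6.01 and 5.92 in MMS and 6.11, 6.29 and 6.07 in diffMMS, with a difference between TMS and diffMMS of -0.28 ± 0.0776 (SE) (limma adjusted p = 0.0212). Both calls were lost without TMS replicate 3 (limma adjusted p = 0.0665 for Hoxd9 and 0.0668 for Hoxb9) and without diffMMS replicate 2 (limma adjusted p = 0.0737 and 0.0794), that of Hoxd9 also without diffMMS replicate 3 (limma adjusted p = 0.0718) and that of Hoxb9 without TMS replicate 2 (limma adjusted p = 0.0662).

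Hoxc9 and Hoxa7 were called with little room. Hoxc9 read 8.13, 8.06 and 7.84 in TMS, just below diffMMS, and differed by -0.31 ± 0.0965 (SE) (limma adjusted p = 0.0346). Hoxa7 read 7.62, 7.36 and 7.23 in TMS, where the highest array overlapped with diffMMS, and differed by -0.34 ± 0.11 (SE) (limma adjusted p = 0.0416). Leaving out 1 array ended the Hoxc9 call in 5 cases (TMS replicate 2 or 3, MMS replicate 3, diffMMS replicate 1 or 2, limma adjusted p from 0.0519 to 0.107) and the Hoxa7 call in 7 (TMS replicate 2 or 3, any MMS replicate, diffMMS replicate 1 or 2, limma adjusted p from 0.0532 to 0.138). Neither was called with values as deposited (limma adjusted p = 0.0627 for Hoxc9 and 0.0640 for Hoxa7) or with arrays centred (limma adjusted p = 0.0596 and 0.0594).

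**Figure D3:**
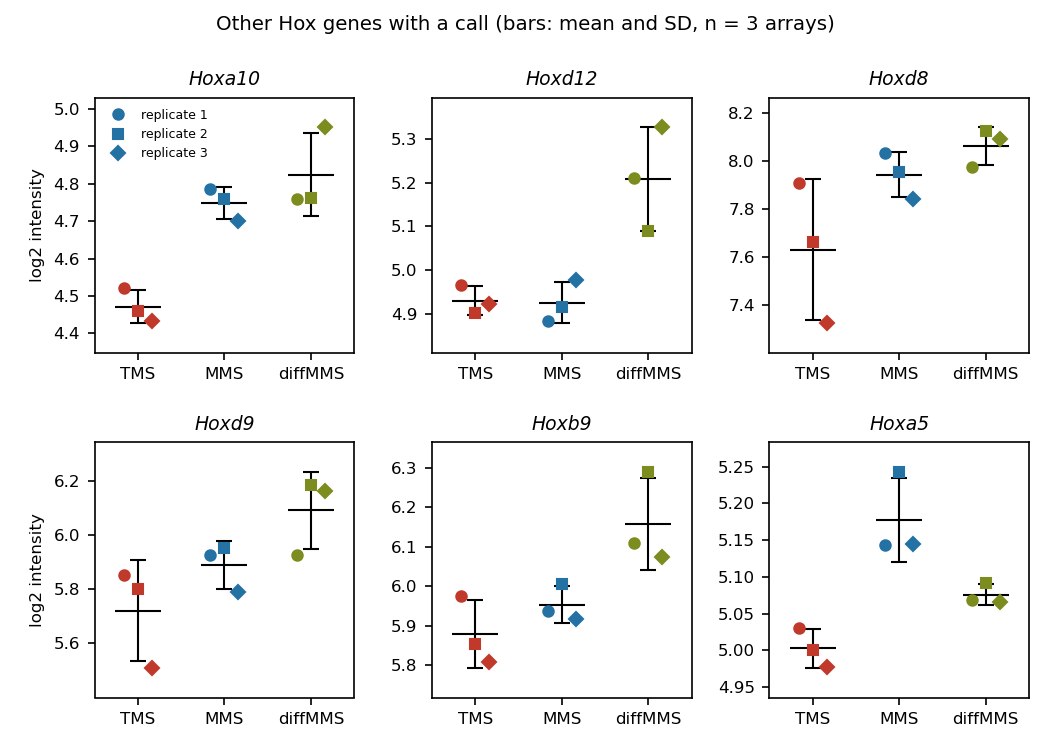
Log2 intensity of Hoxa10, Hoxd12, Hoxd8, Hoxd9, Hoxb9 and Hoxa5 on each array, with horizontal bars for the mean and error bars for the SD (n = 3). TMS points lie below all diffMMS points in every panel, by as little as 5.03 against 5.07 in Hoxa5, and the diffMMS points of Hoxd12 lie above both other groups. Vertical scales differ between panels, and Hoxa10, Hoxd12 and Hoxa5 are dim probe sets.

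TMS lay wholly below diffMMS in 10 Hox genes, against 21.7% of all genes, and wholly above in 1, Hoxa4, against 17.5%. In either direction these were 11 of 31, against 39.2% of all genes. The 10 were the called genes other than Hoxa7, with Hoxa5 and Hoxc5. In the deposited intensities these 10 stayed wholly below, while Hoxa4 overlapped. By cluster, 3 of 6 genes of the C cluster, 3 of 7 of the D cluster, 2 of 9 of the A cluster and 1 of 9 of the B cluster were called. By place, 0 of 6 genes of paralogs 1 to 3 were called by limma or had an unadjusted p below 0.05, with 4 of 12 called for paralogs 4 to 8 and 5 of 13 for paralogs 9 to 13.

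The 18 Hox genes called in no comparison were Hoxa3, Hoxa4, Hoxa11, Hoxa13, Hoxb1, Hoxb2, Hoxb3, Hoxb5, Hoxb6, Hoxb7, Hoxb13, Hoxc4, Hoxc5, Hoxc13, Hoxd1, Hoxd10, Hoxd11 and Hoxd13. Between TMS and MMS their differences ran from -0.20 in Hoxb6 to 0.11 in Hoxa13, between diffMMS and MMS from -0.13 in Hoxa4 to 0.23 in Hoxa13, and between TMS and diffMMS from -0.29 in Hoxb6 (limma adjusted p = 0.0512) to 0.11 in Hoxa4. Hoxb2 and Hoxb3, anterior genes that act in the hindbrain, were among the brighter probe sets and had close group means. Hoxb2 averaged 7.58 ± 0.284 in TMS, 7.61 ± 0.0548 in MMS and 7.60 ± 0.0248 in diffMMS, and Hoxb3 7.55 ± 0.238, 7.67 ± 0.13 and 7.64 ± 0.113 (SD, n = 3). Hoxb7 averaged 5.74, 5.68 and 5.85 in the same order, with overlapping groups.

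Hoxa3, Hoxa4, Hoxa9 and Hoxb4 had 2 probe sets each and Hoxc6 had 3, and these did not always move alike. In Hoxc6 the next probe set by brightness gave nearly the same differences as that taken, 0.54 ± 0.0993 (SE) for diffMMS against MMS (limma adjusted p = 0.00154) and -0.63 ± 0.0993 (SE) for TMS against diffMMS (limma adjusted p = 0.000632). The third gave 0.06 ± 0.0739 (SE) and -0.19 ± 0.0739 (SE), and neither was called (limma adjusted p = 0.565 and 0.0793). The dimmer Hoxa9 probe set read 5.83, 5.94 and 5.53 in TMS and was called lower there than in MMS, by -0.47 ± 0.0964 (SE) (limma adjusted p = 0.00675), where the brighter one differed by 0.00. The Hoxc6 probe set taken carries the suffix by which the maker marks probes that may also bind other transcripts, and whether probe sets of a gene read different transcripts was not tested.

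**Figure D4:**
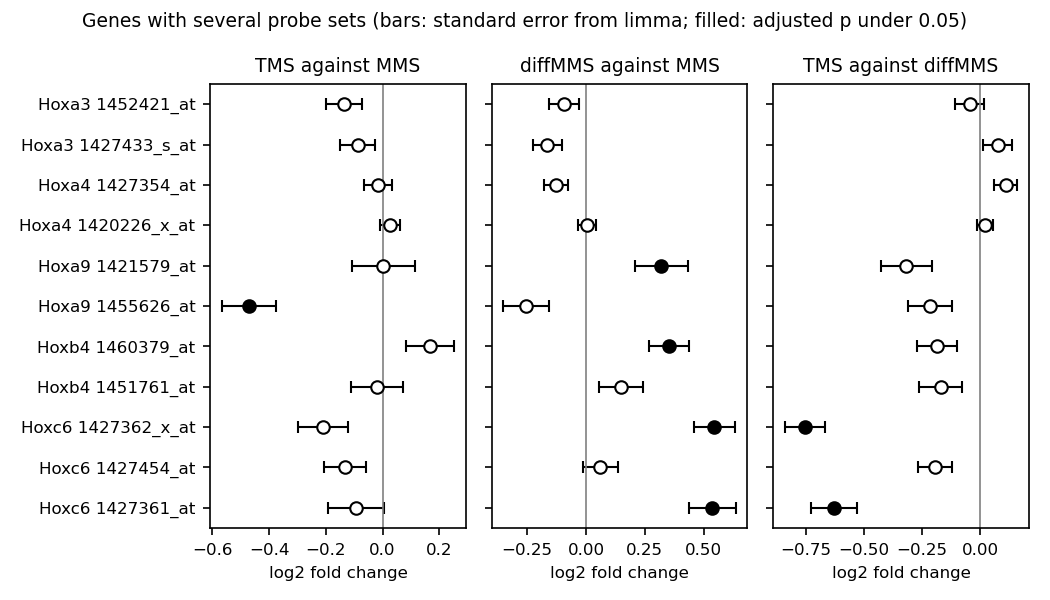
Log2 fold changes of each probe set of the 5 Hox genes with several, for the 3 comparisons, with standard errors from limma (n = 3 arrays a group) and filled points for adjusted p below 0.05. The probe set taken for each gene stands first. The Hoxa9 points lie on opposite sides of 0 for diffMMS against MMS, at 0.32 and -0.26, and the Hoxc6 points at 0.54, 0.06 and 0.54.

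Promoter sequence was at hand for part of these genes. RefSeq tables (GRCm38.p6) held 20 promoter windows, from 250 bases before to 50 after a start site, for 18 of the 31 genes and for 9 of the 13 called genes, and none for Hoxb9, Hoxc6, Hoxc8 and Hoxc9. The windows of Hoxa7 and Hoxb4 are shown because these were the most changed called genes between diffMMS and MMS after those of the C cluster and had no opposite second probe set, and that of Hoxd8 because it differed between TMS and diffMMS. Hoxa7 lies at chr6:52218524-52218823 on the minus strand, Hoxb4 at chr11:96318017-96318316 on the plus strand and Hoxd8 at chr2:74704365-74704664 on the plus strand, each written 5′ to 3′ along the gene with the letters AGGTCA, the nuclear receptor half-site, or their complement TGACCT in capitals.
Hoxa7: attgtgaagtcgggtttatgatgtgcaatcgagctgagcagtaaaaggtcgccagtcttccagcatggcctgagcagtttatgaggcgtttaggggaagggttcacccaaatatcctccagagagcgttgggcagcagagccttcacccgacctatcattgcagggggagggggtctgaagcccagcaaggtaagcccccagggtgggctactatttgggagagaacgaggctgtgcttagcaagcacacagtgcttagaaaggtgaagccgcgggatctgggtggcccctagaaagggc
Hoxb4: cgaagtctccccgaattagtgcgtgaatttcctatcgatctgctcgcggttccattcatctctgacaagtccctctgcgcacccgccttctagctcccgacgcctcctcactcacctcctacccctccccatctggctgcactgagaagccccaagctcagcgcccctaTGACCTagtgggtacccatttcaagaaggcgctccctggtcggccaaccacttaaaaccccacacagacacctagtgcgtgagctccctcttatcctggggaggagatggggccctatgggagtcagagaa
Hoxd8: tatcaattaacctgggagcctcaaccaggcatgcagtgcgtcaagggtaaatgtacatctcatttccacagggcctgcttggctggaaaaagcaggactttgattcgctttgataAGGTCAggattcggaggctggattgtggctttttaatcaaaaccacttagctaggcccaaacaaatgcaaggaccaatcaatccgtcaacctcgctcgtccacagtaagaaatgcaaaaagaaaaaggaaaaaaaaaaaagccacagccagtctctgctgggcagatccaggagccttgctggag

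Searched on both strands, AGGTCA was in 3 of the 10 windows of called Hox genes (Hoxa5, Hoxb4 and Hoxd8), in 5 of all 20 Hox windows and in 16.3% of the 32851 windows of all genes. Its first base lay at -81 from the start site in Hoxb4, on the minus strand, and at -135 in Hoxd8, on the plus strand. TGATNNAT, a site for Hox with Pbx, was in 1 of the 10 windows (Hoxa2) and in 8.85% of all, TATAAA in 1 (Hoxa10) and 13.6%, and TAATTA, the core homeodomain site, in 0 and 5.29%. Each of the 5 windows with a match held 1 of the motifs, so matches did not overlap, and the Hoxa7 window held none.

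Among the cofactors, Pbx2, a partner that helps Hox proteins bind DNA, was lower outside MMS on its brightest probe set. It read 7.53, 7.42 and 7.46 in MMS, 7.09, 7.05 and 7.01 in TMS and 6.95, 7.14 and 6.90 in diffMMS, and the MMS arrays were above all others. The differences were -0.42 ± 0.0798 (SE) for TMS (limma adjusted p = 0.0045) and -0.47 ± 0.0798 (SE) for diffMMS (limma adjusted p = 0.000816). Of the 2 other Pbx2 probe sets 1 was called lower in diffMMS, at -0.32 (limma adjusted p = 0.00693), and the other was at -0.02 (limma adjusted p = 0.878). Neither was called in TMS against MMS, at -0.11 and -0.13 (limma adjusted p = 0.379 and 0.288). Pknox1, a partner of Pbx, fell by 0.50 in diffMMS against MMS (limma adjusted p = 0.0103), with a second probe set at -0.53 (limma adjusted p = 0.000297). Without MMS replicate 3 the first was at -0.44 (limma adjusted p = 0.0503).

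Pbx4 and Pknox2 rose in diffMMS against MMS by 0.22 and 0.21 (limma adjusted p = 0.0151 and 0.0418), both on probe sets below the median. Both calls depended on single arrays: that of Pbx4 was lost without MMS replicate 2 or diffMMS replicate 2 (limma adjusted p = 0.0704 and 0.0509), and that of Pknox2 without any MMS replicate, TMS replicate 2 or diffMMS replicate 1 or 3 (limma adjusted p from 0.0529 to 0.129). A second Pbx4 probe set differed by 0.12 with overlapping groups and was not called (limma adjusted p = 0.217). Meis1 and Meis2, which stabilise Hox and Pbx on DNA, had differences of -0.32 and -0.33 in TMS against MMS that were not called (limma adjusted p = 0.0874 and 0.0869), and Meis3 and Pbx3 differed by 0.05 and -0.10. In all, of 8 cofactors measured, 1 was called lower in TMS than in MMS, 2 higher and 2 lower in diffMMS than in MMS, and 1, Pknox1, higher in TMS than in diffMMS by 0.44 (limma adjusted p = 0.0255), which was not called without TMS replicate 1 or 2 or diffMMS replicate 1 (limma adjusted p from 0.0779 to 0.0958). Without MMS replicate 2 or 3, 2 of the 8 were called in diffMMS against MMS in place of 4, and without TMS replicate 2 or diffMMS replicate 1, 2 were called in TMS against MMS in place of 1. Over all genes 13.3% were called in TMS against MMS, 34.1% in diffMMS against MMS and 24.9% in TMS against diffMMS. The cofactors' median differences were -0.08, -0.10 and -0.06 in the order of the 3 comparisons.

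**Figure D5:**
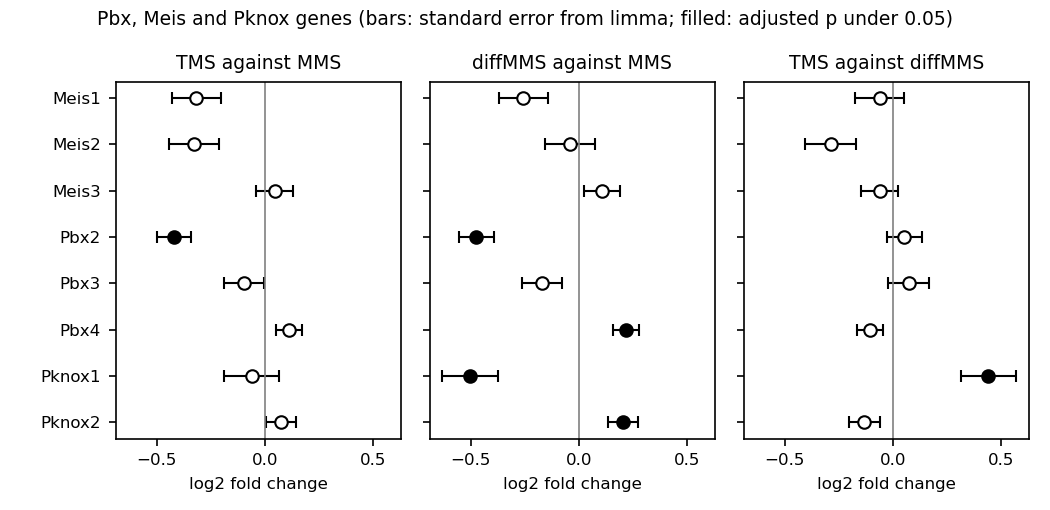
Log2 fold changes of the 8 measured Pbx, Meis and Pknox genes, brightest probe set each, for the 3 comparisons, with standard errors from limma (n = 3 arrays a group) and filled points for adjusted p below 0.05. Pbx2 lies at -0.42 and -0.47 in the panels against MMS and at 0.05 in the third. Pknox1 lies at -0.50 for diffMMS against MMS and at 0.44 for TMS against diffMMS.

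Genes of the complexes that hold Hox genes silent or active were counted in the same way. Of 11 genes of Polycomb complex PRC2, 5 were called lower and 2 higher in diffMMS than in MMS, 1 lower in TMS than in MMS, and 6, all higher, in TMS than in diffMMS, at medians of -0.31, -0.06 and 0.25. The shares of all genes called in these comparisons were 34.1%, 13.3% and 24.9%. Ezh2, its methyltransferase, fell by 0.93 from MMS to diffMMS (limma adjusted p = 0.000297), and Rbbp7, a histone-binding subunit, was at -0.85 (limma adjusted p = 2.8e-06). Suz12 and Phf19 were the 2 that rose, by 0.26 and 0.45 (limma adjusted p = 0.0409 and 0.0101), and the Suz12 call was lost without MMS replicate 2 or 3 or diffMMS replicate 2 or 3 (limma adjusted p from 0.0991 to 0.141) and with arrays unscaled or centred (0.0710 and 0.145). Leaving out 1 array gave 6 to 8, 1 to 5 and 5 to 7 PRC2 calls in the order of diffMMS against MMS, TMS against MMS, where TMS replicate 3 was the one whose loss raised it, and TMS against diffMMS.

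Of 14 PRC1 genes, 4 were called lower and 2 higher in diffMMS than in MMS, 2 lower in TMS than in MMS, and 2 higher and 1 lower in TMS than in diffMMS, at medians of -0.04, -0.07 and -0.06, so the last 2 counts were near the 13.3% and 24.9% of all genes and the first stood beside 34.1%. Phc2 fell by 0.99 (limma adjusted p = 4.64e-05) and Bmi1, known for stem cell self-renewal, by 0.70 (limma adjusted p = 0.00286) from MMS to diffMMS. Ring1 and Cbx7 rose by 0.34 and 0.27 (limma adjusted p = 0.00316 and 0.0154), though Cbx7 was not called without MMS replicate 2 (limma adjusted p = 0.0682). Without TMS replicate 1 or MMS replicate 2 or 3, 1 PRC1 gene was called in TMS against MMS in place of 2, and without TMS replicate 1, 5 in TMS against diffMMS in place of 3.

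Of 14 Trithorax and MLL genes, 2 were called higher and 3 lower in diffMMS than in MMS, 3 higher and 2 lower in TMS than in MMS, and 3 higher and 1 lower in TMS than in diffMMS, at medians of 0.03, 0.03 and 0.06. Against 34.1%, 13.3% and 24.9% of all genes, the counts in the comparisons with diffMMS were near the share over all genes. Kmt2a, the MLL methyltransferase itself, differed by 0.33 in TMS against MMS (limma adjusted p = 0.049), a call lost without any 1 array other than TMS replicate 3 (limma adjusted p from 0.0523 to 0.179) and with arrays centred (limma adjusted p = 0.0671), and Psip1, which tethers it to chromatin, by -0.55 in diffMMS against MMS (limma adjusted p = 0.00127). Leaving out 1 array gave from 0 (without MMS replicate 2 or 3) to 5 calls in TMS against MMS, from 3 (without MMS replicate 3) to 6 in diffMMS against MMS and from 1 (without diffMMS replicate 3) to 4 in TMS against diffMMS. Whether these differences bear on those of the Hox genes was not tested.

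Retinoic acid switches on Hox genes in embryos, and of 12 genes of its synthesis, breakdown, binding and receptors, 7 were called higher and 3 lower in diffMMS than in MMS, 2 higher in TMS than in MMS, and 4 higher and 3 lower in TMS than in diffMMS, at medians of 0.27, 0.17 and -0.14, beside 34.1%, 13.3% and 24.9% of all genes called. Aldh1a1, a synthesis enzyme, rose by 0.89 (limma adjusted p = 0.000361) and the binding protein gene Crabp1 fell by 3.47 (limma adjusted p = 1.97e-10) from MMS to diffMMS. Without MMS replicate 2, 6 were called in that comparison in place of 10, and without TMS replicate 3, 4 in TMS against MMS in place of 2. Of 14 embryonic Hox inducers and ParaHox genes, 3 were called higher and 2 lower in diffMMS than in MMS, 2 lower in TMS than in MMS, and 2 in each direction in TMS against diffMMS, at medians of 0.11, 0.02 and -0.07, and all 3 counts were near those shares of all genes. The 2 lower genes were Egr2, a hindbrain activator of Hoxa2 and Hoxb2, which fell by 4.11 (limma adjusted p = 9.26e-09), and Gmnn, which fell by 0.55 (limma adjusted p = 0.000106). Hoxa2, a dim probe set at the 4.94th percentile, and Hoxb2 differed by -0.07 and -0.01 in the same comparison. Whether the level of Egr2 bears on either gene was not tested. Inducer and ParaHox calls fell to 3 in diffMMS against MMS without MMS replicate 3 or diffMMS replicate 1, to 2 in TMS against diffMMS without TMS replicate 2 or 3 or diffMMS replicate 1, and to 1 in TMS against MMS without any 1 array other than TMS replicate 2 or MMS replicate 1.

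Homeobox genes outside the clusters were measured for 60 genes. In diffMMS against MMS 19 were called higher and 4 lower, in TMS against MMS 5 higher and 2 lower, and in TMS against diffMMS 7 higher and 13 lower, at medians of 0.17, 0.04 and -0.08. The first 2 counts were near the shares over all genes (34.1% and 13.3%), and the third stood beside 24.9%. By direction, 18% of all genes were called higher and 16.1% lower in diffMMS than in MMS. Irx1 and Irx2, patterning genes of another family, were higher in TMS than in MMS by 2.04 and 1.79 (limma adjusted p = 7.35e-08 and 4.61e-07), and Meox2 and En1 were lower, at -0.50 and -0.46 (limma adjusted p = 0.00164 and 0.0146). En1 was not called without TMS replicate 2 or MMS replicate 2 (limma adjusted p = 0.0630 and 0.0716), and without MMS replicate 3 the calls in diffMMS against MMS were 12 in place of 23. Without TMS replicate 3 those in TMS against MMS were 11 in place of 7.

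Markers of cell types that the cultures could hold were counted in the same comparisons, in which 34.1% (diffMMS against MMS), 13.3% (TMS against MMS) and 24.9% (TMS against diffMMS) of all genes were called. Of 15 fibroblast markers, 6 were called higher and 5 lower in diffMMS than in MMS, 1 higher and 2 lower in TMS than in MMS, and 3 higher and 7 lower in TMS than in diffMMS, and their summed intensity was 37094 to 40599 in TMS, 44575 to 45954 in MMS and 53664 to 56343 in diffMMS. The list did not move as one, since its median log2 level was lowest in diffMMS (10.92 to 11.11 in TMS, 10.95 to 11.27 in MMS and 10.54 to 10.67 in diffMMS). Adipocyte markers (8 measured) summed to 747 to 820, 1038 to 1302 and 4511 to 4964, with 3 called higher in diffMMS than in MMS, of which Lpl rose by 2.51 (limma adjusted p = 9.17e-09), while their defining gene Adipoq read 4.63 to 4.78 over all arrays.

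Luminal markers (14 measured) had 2 called higher in diffMMS than in MMS and 8 higher in TMS than in diffMMS. Of 12 basal and myoepithelial markers, 2 were called higher and 1 lower in TMS than in MMS, 4 higher and 2 lower in diffMMS than in MMS, and 4 in each direction in TMS against diffMMS, and their sums overlapped between the groups (6600 to 7995 in TMS, 7316 to 7517 in MMS and 6547 to 8161 in diffMMS). Macrophage markers (13) summed to 1688 to 2563, 956 to 1026 and 1078 to 1535, with 5 called higher in TMS than in MMS, 5 higher and 1 lower in diffMMS than in MMS and 3 higher in TMS than in diffMMS. Their differences were positive in all 13 for TMS against MMS, in 12 for diffMMS against MMS and in 10 for TMS against diffMMS. Ptprc, the common leukocyte gene and 1 of the list, read 4.85 to 5.11 over all arrays. Endothelial markers (11) summed to 932 to 1021, 993 to 1051 and 1144 to 1202, with 4 called lower in TMS than in MMS, 2 higher and 1 lower in diffMMS than in MMS and 5 lower in TMS than in diffMMS. Adipocyte markers had 2 called lower in TMS than in MMS and 3 lower in TMS than in diffMMS. The part of these cell types in the Hox differences was not tested.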

How the data were processed

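Total RNA from 9 cultures was profiled on 1 array each. The authors deposited linear probe set intensities in 1 table, already summarised from the probes. Their software was GeneSpring, and the summary and scaling methods are not given in the sources used here. Array medians ran from 84.0 to 88.6. Of 22690 probe sets, 64 Affymetrix controls were left out. A pseudocount of 8.67 (10% of the median value) was added, log2 was taken, and arrays were quantile normalized because quartiles differed by 0.134, over a limit of 0.1. Limma 3.58.1 in R 4.3.3 (lmFit, eBayes with an intensity trend) was fitted to all 9 arrays in 3 groups without covariates (6 residual degrees of freedom), with two-sided tests and Benjamini-Hochberg adjustment over all 22626 probe sets, and was tested on simulated data first. The number of arrays limits the precision, and 0 pairs of arrays held identical values.

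Genes were named through the platform annotation (20380 probe sets with 1 symbol, 691 with several, 1555 without). Of those with several symbols, 3 named at least 1 Hox gene and were left out. Every measured Hox gene is named. Those called with groups apart are given by array, others by range, and other lists by counts and their largest changes. The members and lists were chosen with earlier results of these data known. Alternatives were other scalings, pseudocounts, filters, variance models and probe sets, and leaving out each array.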

Additional observations from a re-analysis of the deposited data

How the results depend on the processing

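Of the 93 Hox gene differences tested, 20 were called, of which 8 kept the call in every alternative that measured them and 12 lost it in at least 1, and 11 kept it whichever of the 9 arrays was left out. Another 10 differences became called in at least 1 alternative. Hox calls between TMS and MMS (4) became 1 with dim probe sets left out, 2 without the intensity trend and 7 with array weights, and ranged from 1 (without TMS replicate 2 or MMS replicate 1, 2 or 3) to 4 when an array was left out, with 2 without TMS replicate 3. Between diffMMS and MMS (7) they became 4 with the probe set of the lowest mean and ranged from 6 to 8 when an array was left out. Between TMS and diffMMS (9) they became 5 in a fit of those groups alone and ranged from 4 (without TMS replicate 3 or diffMMS replicate 2) to 10 when an array was left out. Hoxa9 turned to -0.47 for TMS against MMS and to -0.26 for diffMMS against MMS when its other probe set was taken, as the one of the largest F or of the lowest mean. The causes were not tested, other than that filters measure fewer genes and fits without an array fewer samples. Hoxc6 in both its comparisons and Hoxb4 lost their calls in 1 alternative, the probe set of the lowest mean. Of 24 called differences of named genes of the other lists, 16 kept the call in every alternative, which were run for those genes after seeing the data.

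No paired analysis was possible because the labels give no replicate numbers and the numbers used here only name arrays in order of accession. No raw probe signals were used here, so signal over background was not measured, and the small differences of the 11 Hox probe sets below the 25th percentile are limited by that.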
